A study of Mus musculus with 7 samples.

Results

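Transcripts of 8 surface proteins that restrain T cells and of 2 nuclear factors of the Tox family were followed in CD8 T cells labelled as ACLY knockout or wild type. The genes were taken by name: Pdcd1, Havcr2, Lag3, Tigit, Ctla4, Cd160, Cd244a, Entpd1, Tox and Tox2. All 10 had 1 row each among the 16156 genes of the deposited tables. The study sequenced total RNA of mouse CD8 T cells with the transgenic OT-I receptor for an ovalbumin peptide, either wild type (WT, 4 libraries) or ACLY knockout (KO, 3 libraries). ACLY is ATP citrate lyase, which makes cytosolic acetyl-CoA from citrate. The donor cells of both genotypes were congenically marked and went into C57Bl/6 hosts, which keep their own lymphocytes, 1 day before the mice were infected with Listeria monocytogenes carrying ovalbumin. The cells were recovered on day 6 of infection. The labels name neither the way ACLY was removed nor the number of donor or host animals behind the libraries, so p-values measure only the spread between these libraries, which may be technical. WT and KO below stand for the libraries so labelled. Single values are listed by replicate number, 1 to 4 for WT and 1 to 3 for KO.

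T cells put inhibitory receptors on their surface after antigen contact. PD-1 (Pdcd1), TIGIT and CD244 recruit phosphatases or adaptors through short tyrosine motifs, CTLA-4 competes with CD28 for its ligands, and LAG-3 binds MHC class II. In an acute infection most of these genes are switched on for a time and then fall, while in chronic infection and tumours they stay on together with the DNA-binding factors TOX and TOX2, a state called exhaustion. Several are not exclusive to CD8 T cells: TIM-3 (Havcr2), CD39 (Entpd1) and CD244 are also made by myeloid cells, and CD160, CD244 and TIGIT by natural killer cells.

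The windows upstream of Pdcd1 and Cd160 are shown because these were the members, with Lag3, whose 3 KO values were all below their 4 WT values, as were those of 9.03% of all genes. RefSeq promoter sequences (GRCm38.p6) matched 8 of the 10 members, with 14 start sites. The Pdcd1 window is chr1:94052554-94052803 and the Cd160 window chr3:96829352-96829601, both on the minus strand, 250 bases ending just before the start site and written 5′ to 3′. Capitals mark matches, on either strand, to the letters searched: the NFAT core GGAAA, the AP-1 site TGANTCA, the T-box site TCACAC, the NR4A site AAAGGTCA, the TCF and LEF site CTTTGAA and the E-box CANNTG, which reads alike on both strands.
Pdcd1: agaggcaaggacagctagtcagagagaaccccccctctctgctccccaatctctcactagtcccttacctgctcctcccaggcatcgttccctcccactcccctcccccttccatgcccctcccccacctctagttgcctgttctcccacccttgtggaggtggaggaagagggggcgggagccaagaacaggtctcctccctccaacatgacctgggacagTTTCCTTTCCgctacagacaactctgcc
Cd160: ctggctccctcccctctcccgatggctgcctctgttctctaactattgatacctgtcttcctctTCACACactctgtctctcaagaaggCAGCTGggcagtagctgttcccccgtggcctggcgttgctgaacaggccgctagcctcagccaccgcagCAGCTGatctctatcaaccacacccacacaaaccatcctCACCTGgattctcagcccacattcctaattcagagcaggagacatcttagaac
The Pdcd1 window held the NFAT core letters as 2 matches side by side on the other strand, 28 and 23 bases before the start, and no other searched motif. The Cd160 window shown held 1 T-box match, 186 bases before the start, and 3 E-box matches, 161, 92 and 53 bases before it. A second Cd160 start, with the window chr3:96814522-96814771, held 1 NFAT core, 1 T-box and 2 TCF and LEF matches. These letters are common: the NFAT core was in 55.6% of all 32851 RefSeq windows of this length and in 8 of the 14 member windows, the E-box in 66.2% and in 9 of 14, and the T-box letters in 12.3% and in 2 of 14, both of Cd160. AP-1 letters were in 6.75% of all windows and in 2 of 14, those of the Havcr2 start and the Cd244a start. TCF and LEF letters were in 4.46% and in 1 of 14, the second Cd160 window, and the NR4A letters in 1.34% and in none of the 14. A match is a run of letters and does not show binding.

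Some libraries differed in ways that touch every value below. Gene counts summed to 45.3 to 75.6 × 1e6 in WT and 37.5 to 39.7 × 1e6 in KO. Acly was at 276 to 414 CPM (counts scaled to the size of the library) in WT and at 262, 62.0 and 209 CPM in the KO libraries, counted over the whole gene (log2 difference -1.0 ± 0.44, SE; edgeR adjusted p = 0.278). Its transcript was thus present in each KO library, and KO replicate 1 was close to WT replicate 4, so the transcript level does not by itself bear out the label of that library. The segments Trbv12-1 and Trbv12-2, of the V beta family that OT-I uses, took 99.0% to 99.2% of Trbv counts in WT replicates 1 to 3, 84.5% in WT replicate 4, and 46.7%, 23.2% and 61.8% in KO replicates 1 to 3. The exact (Clopper-Pearson) 95% intervals of these last 4 shares, which cover counting error only, were 84.0% to 84.9%, 45.6% to 47.8%, 22.6% to 23.8% and 61.0% to 62.5%. The 9 CD8 T cell markers summed to 3825, 9156 and 9022 CPM in the KO libraries and to 8462 to 10760 CPM in WT, led by Lck and Cd8b1. All 10 B cell markers, led by Ighm and Ighd, and all 12 macrophage and monocyte markers, led by Lyz2 and Vcam1, had a higher mean in KO. The B cell sum was 10160, 1151 and 642 CPM in KO and 245 to 682 CPM in WT, and the macrophage and monocyte sum was 1349, 81.2 and 1306 CPM against 21.1 to 37.9 CPM. Red cell genes (Hbb-bs, Hba-a1) reached 47280, 6566 and 238 CPM in KO and 1.48 to 475 CPM in WT, and the neutrophil genes (S100a8, Ngp) 480, 30.3 and 9.90 CPM against 0.138 to 0.543 CPM, while dendritic (Itgax, Bst2) and gamma delta (Trdc, Blk) sums overlapped between the groups. WT replicate 4 summed to 5816 CPM over 24 cell cycle genes, against 545 to 555 CPM in the other WT libraries and 470 to 1501 CPM in KO. In bulk RNA, fewer cells of a type and less transcript per cell cannot be told apart.

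Pdcd1, which encodes PD-1 (mm10 chromosome 1, minus strand, 94038305 to 94052553), was low throughout the KO libraries. It was at 33.2, 36.01, 29.2 and 124 CPM in the WT libraries and 13.3, 1.44 and 15.8 CPM in the KO libraries. WT replicate 4 was 3.78-fold above the mean of the other WT libraries, and KO replicate 2 was far below every other library. The KO mean was 10.2 ± 7.69 CPM (SD, n = 3) and the WT mean 55.6 ± 45.7 CPM (SD, n = 4), for a log2 difference of -2.45 ± 0.89 (SE). In edgeR's quasi-likelihood test this had an unadjusted p of 0.0262 and a Benjamini-Hochberg adjusted p of 0.202 over all genes, so it did not pass the threshold of 0.05. Without WT replicate 4, whose removal leaves a WT mean of 32.8 ± 3.43 CPM (SD, n = 3), the log2 difference was -1.69.

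Lag3, a receptor for MHC class II (chromosome 6, minus strand, 124904361 to 124911705), was the most even member in WT. It was at 15.4, 14.2, 15.1 and 15.4 CPM in the WT libraries and 6.25, 1.23 and 6.24 CPM in the KO libraries. The groups did not overlap, and WT replicate 4, which stood apart for Pdcd1, was level with the other WT libraries here. The KO mean was 4.58 ± 2.90 CPM (SD, n = 3) and the WT mean 15.04 ± 0.559 CPM (SD, n = 4), for a log2 difference of -1.72 ± 0.54 (SE; edgeR unadjusted p = 0.014, adjusted p = 0.155).

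Cd160, a receptor of the herpesvirus entry mediator Tnfrsf14 (chromosome 3, minus strand, 96798763 to 96829351), was at 108.5, 170.8, 119.5 and 268.8 CPM in the WT libraries and 24.4, 36.5 and 96.1 CPM in the KO libraries. KO replicate 3 came close to the lowest WT library, and KO replicates 1 and 2 lay well below it. The log2 difference was -1.67 ± 0.54 (SE; edgeR unadjusted p = 0.0153, adjusted p = 0.161), and -2.46 without KO replicate 3. The 9 natural killer cell markers that are not members, led by Nkg7 and Gzma, which effector CD8 T cells also make, summed to 1074, 1565 and 2381 CPM in KO and 2683 to 4054 CPM in WT. Ncr1, which encodes NKp46, was at 10.8, 1.37 and 0.896 CPM in KO and at most 0.224 CPM in WT. Klrb1c, which encodes NK1.1, went the other way for most libraries, at 23.9, 13.4 and 19.9 CPM in KO and 71.2, 74.7, 51.4 and 2.71 CPM in WT, and 5 of the 9 markers had a higher mean in KO. The part of natural killer cells in Cd160 was not tested.

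**Figure D1:**
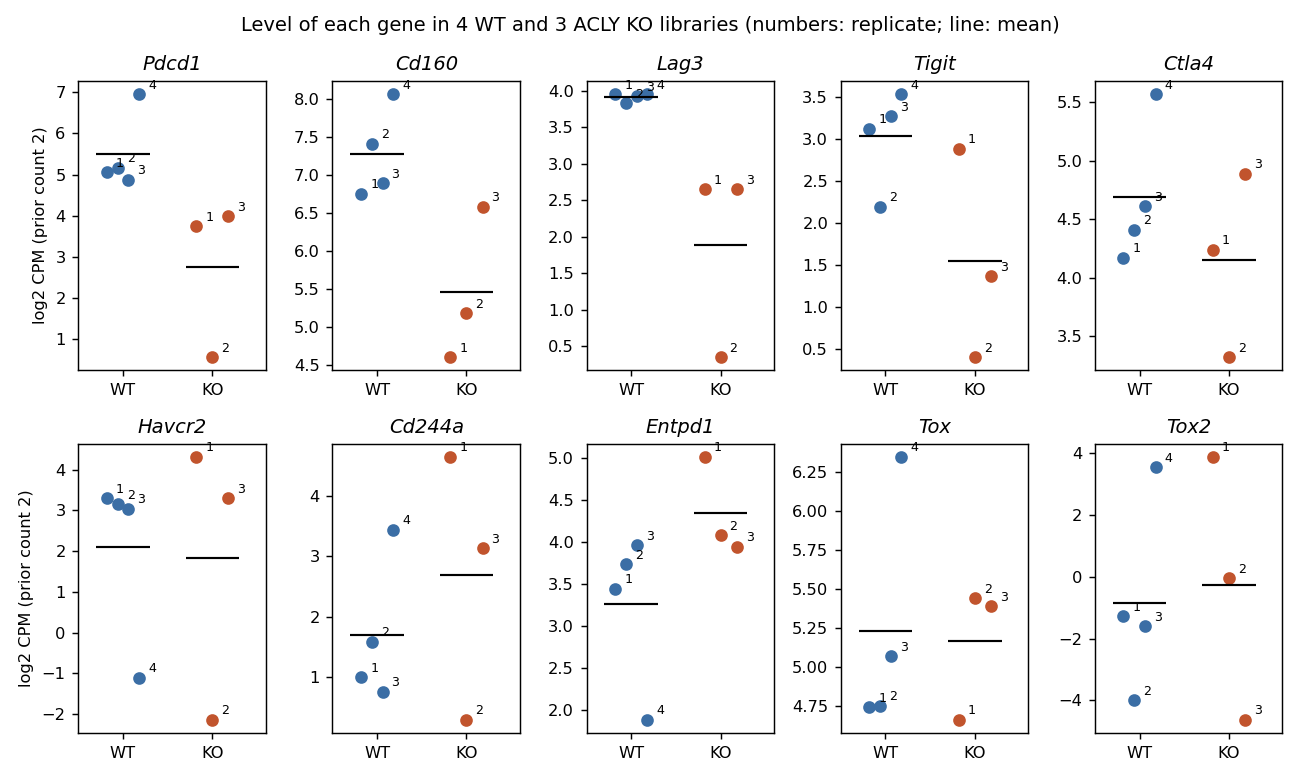
Level of each of the 10 genes on the log2 CPM scale (y axis, prior count of 2; each panel has its own range) in the WT (blue) and KO (orange) libraries; a point is 1 library with its replicate number, and a line is the group mean. The groups separate for Pdcd1, Cd160 and Lag3 and overlap for the other 7 genes, and WT replicate 4 is the highest or the lowest WT library in all 10 panels.

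Tigit, which binds the poliovirus receptor and nectins (chromosome 16, minus strand, 43648867 to 43664146), was at 8.66, 4.53, 9.64 and 11.5 CPM in the WT libraries and 7.32, 1.28 and 2.53 CPM in the KO libraries. KO replicates 2 and 3 lay below every WT library and KO replicate 1 among them. The log2 difference of -1.21 ± 0.63 (SE) did not pass (edgeR adjusted p = 0.359), and it was -2.17 without KO replicate 1. Ctla4, the competitor of CD28 (chromosome 1, plus strand, 60887000 to 60915832), was at 17.9, 21.2, 24.4 and 47.4 CPM in WT and at 18.8, 9.94 and 29.7 CPM in KO. The groups overlapped, with a log2 difference of -0.51 ± 0.46 (SE; edgeR adjusted p = 0.612), which was -0.13 without WT replicate 4 and turned to 0.08 when T cell genes were used for scaling. Both genes are also strong in regulatory CD4 T cells. Cd4 was at 110, 1.19 and 6.19 CPM in KO and at most 0.157 CPM in WT. The 8 measured CD4 and regulatory T cell markers, led by Cxcr5 and Bcl6, summed to 545, 97.5 and 95.2 CPM against 60.8 to 79.4 CPM. Foxp3, the listed marker of regulatory T cells, was not measured, so this sum does not single them out. KO replicate 1, with the highest sum, also had the largest B cell sum, 10160 CPM. The part of CD4 T cells, regulatory or not, in the Tigit and Ctla4 values was not tested.

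Havcr2, which encodes TIM-3 (chromosome 11, plus strand, 46454935 to 46481255), split the libraries within both genotypes. It was at 9.74, 8.82, 8.16 and 0.424 CPM in the WT libraries and 19.8, 0.186 and 9.83 CPM in the KO libraries. WT replicate 4 had 25 counts (95% exact Poisson interval 0.274 to 0.626 CPM, counting error only) and KO replicate 2 had 8 counts (0.0804 to 0.367 CPM), while KO replicate 3 was level with WT replicates 1 to 3. The log2 difference between genotypes was 0.55 ± 1.29 (SE; edgeR adjusted p = 0.863), and -0.44 without KO replicate 1. The KO libraries with more Havcr2, replicates 1 and 3, were also those with macrophage and monocyte sums of 1349 and 1306 CPM, against 81.2 CPM in replicate 2. In WT replicates 1 to 3 these markers summed to 21.1 to 37.9 CPM, and in WT replicate 4 to 30.8 CPM. The part of macrophages and monocytes in the Havcr2 level was not tested.

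Cd244a, a receptor of the SLAM family that binds CD48 (chromosome 1, plus strand, 171559193 to 171609746), was at 1.96, 2.96, 1.65 and 10.8 CPM in the WT libraries and 24.96, 1.19 and 8.73 CPM in the KO libraries. KO replicates 1 and 3 and WT replicate 4 were high, and KO replicate 2 was the lowest of all. The log2 difference was 1.42 ± 1.01 (SE; edgeR adjusted p = 0.505), 0.19 without KO replicate 1 and 2.39 without WT replicate 4. Within KO, Cd244a ranked the libraries as the macrophage and monocyte sum did. Across genotypes it did not. WT replicate 4 had more Cd244a than KO replicate 3 (10.8 against 8.73 CPM) but a far smaller macrophage and monocyte sum (30.8 against 1306 CPM). The part of other cells in the Cd244a level was not tested.

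Entpd1, the ectonucleotidase CD39 that starts the breakdown of extracellular ATP towards adenosine (chromosome 19, plus strand, 40612366 to 40741602), was the member nearest to a separation in the upward direction. It was at 10.8, 13.3, 15.5 and 3.65 CPM in the WT libraries and 32.2, 16.9 and 15.3 CPM in the KO libraries. Only KO replicate 3 fell inside the WT range, just under WT replicate 3. The KO mean was 21.5 ± 9.32 CPM (SD, n = 3) and the WT mean 10.8 ± 5.14 CPM (SD, n = 4), for a log2 difference of 0.99 ± 0.50 (SE; edgeR adjusted p = 0.343). It was 0.58 without KO replicate 1, the library with the largest B cell and macrophage sums, and 0.69 without WT replicate 4.

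Tox, the factor most tied to exhausted T cells (chromosome 4, minus strand, 6686353 to 6991557), overlapped between the genotypes. It was at 26.6, 26.9, 33.5 and 81.6 CPM in the WT libraries and 25.2, 43.3 and 41.9 CPM in the KO libraries. KO replicate 2, which had the least Pdcd1, Lag3 and Tigit of all libraries, was second only to WT replicate 4 for Tox. The log2 difference was -0.19 ± 0.44 (SE; edgeR adjusted p = 0.859). It turned to 0.35 without WT replicate 4 and to 0.017 without KO replicate 1. Its sign changed in 6 of 16 alternatives, so the direction depends on single libraries and on the settings.

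Tox2 (chromosome 2, plus strand, 163203125 to 163324170) was under 1 CPM in 5 libraries and above 10 CPM in 2. It was at 0.372, 0.0224, 0.288 and 11.7 CPM in the WT libraries and 14.7, 0.931 and 0 CPM in the KO libraries. WT replicate 2 had 1 count. The 0 counts of KO replicate 3 had a 95% exact Poisson interval of 0 to 0.0944 CPM (counting error only). The log2 difference of 0.75 ± 2.11 (SE; edgeR adjusted p = 0.889) depended on single libraries, with 4.47 without WT replicate 4 and -2.72 without KO replicate 1. The libraries above 10 CPM were also those with the largest cell cycle sums, 5816 CPM in WT replicate 4 and 1501 CPM in KO replicate 1, against 470 to 624 CPM in the others. The part of dividing cells in the Tox2 level was not tested.

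**Figure D2:**
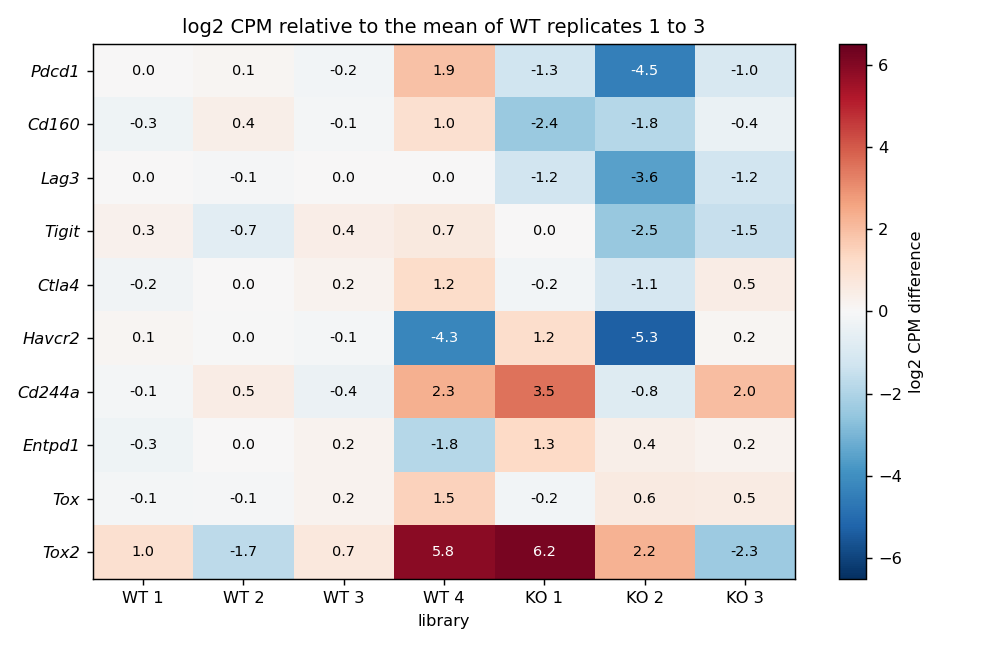
Each cell gives the log2 CPM of a gene (rows) in a library (columns) minus its mean over WT replicates 1 to 3, red for higher and blue for lower. WT replicate 4 is high for Tox2 (5.84), Cd244a (2.33), Pdcd1 (1.92) and Tox (1.5) and low for Havcr2 (-4.26) and Entpd1 (-1.83), and KO replicate 2 is at -4.46 for Pdcd1 and -5.30 for Havcr2.

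The KO libraries also differed among themselves. For Pdcd1, KO replicates 1, 2 and 3 were at -1.29, -4.46 and -1.04 on the log2 CPM scale relative to WT replicates 1 to 3, and for Lag3 at -1.25, -3.55 and -1.25. For Cd160 it was replicate 1 that was lowest, at -2.42, and for Tigit replicate 1 was at 0.02. KO replicate 2 had the lowest values of 6 receptors, Pdcd1, Havcr2, Lag3, Tigit, Ctla4 and Cd244a. The share of all genes that were lowest in this library was not counted, so this number cannot be called large or small. The same library had the smallest share of OT-I V beta counts (23.2%). Whether the low values and this share are linked was not tested.

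Over the members, 0 of 10 passed edgeR's test at an adjusted p under 0.05, as did 0 of 16156 genes (0.0%). At an unadjusted p under 0.05 there were 3 lower members, Pdcd1, Lag3 and Cd160, where 7.89% of all genes were lower, and 0 higher members, where 11.0% of all genes were higher. The same 3 lay below WT in every KO library, which held for 9.03% of all genes, and 0 lay above, which held for 9.46%. DESeq2, an alternative, called Pdcd1, Lag3 and Cd160 lower (adjusted p = 0.0154, 0.0153 and 0.0152), and it called 3.43% of genes with an adjusted p lower. limma voom with quality weights called only Lag3 lower (adjusted p = 0.0283), against 1.68% of all genes. Across the list 6 members were below 0 and 4 above, with a median log2 difference of -0.35, where the median of all genes was 0.00.

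**Figure D3:**
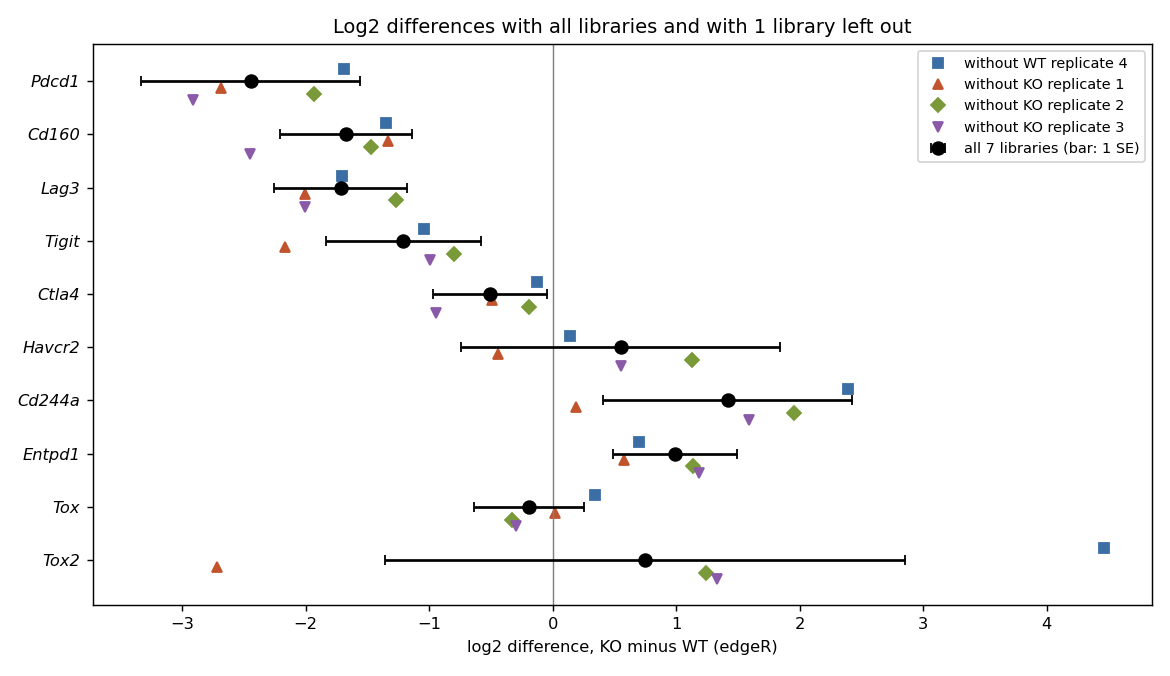
Log2 difference of KO minus WT (x axis, edgeR) for each gene with all 7 libraries (black, bar 1 SE) and with WT replicate 4 or 1 KO library left out (coloured symbols). Pdcd1, Cd160, Lag3, Tigit and Ctla4 stay below 0 and Cd244a and Entpd1 above 0 in these fits, while Havcr2, Tox and Tox2 fall on both sides. With T cell genes as scaling, which is not drawn, Ctla4 is at 0.08 and Tox at 0.29.

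The CD8 T cell markers were lowest in KO replicate 1. The members were therefore also set against 6 T cell genes (Cd3d, Cd3e, Cd3g, Cd247, Lat and Zap70). Their geometric mean was 556 to 648 CPM in WT and 259, 503 and 518 CPM in the KO libraries. KO replicate 2 had 503 CPM but an OT-I V beta share of 23.2%, so values per these 6 genes are not values per OT-I cell. Per 1000 CPM of these genes, Pdcd1 was at 51.2, 59.5, 48.2 and 223 in the WT libraries and 51.4, 2.87 and 30.6 in KO. KO replicate 1 was then inside the WT range. Lag3 was at 23.7, 23.5, 24.9 and 27.8 in WT and at 24.1, 2.45 and 12 in KO, so here too KO replicate 1 was no longer apart. Cd160 was at 167 to 484 in WT and at 93.9, 72.6 and 185 in KO, and overlapped as well. Entpd1 went the other way: it was at 16.7, 21.9, 25.6 and 6.56 in WT and at 124, 33.7 and 29.5 in KO, with each KO library above each WT library. On this scale 23.2% of all genes lay wholly above WT and 0.594% wholly below, so such a separation was common. This scaling raised the median log2 difference of all genes by 0.64. On this scale the log2 differences were -1.76 for Pdcd1, -1.27 for Cd160, -0.96 for Lag3 and 1.82 for Entpd1, and edgeR called 0 members. Relative to the shift of 0.64 they were -2.40, -1.91, -1.60 and 1.18. Taking the shift off largely undoes the scaling, so these last values are not a separate check of the first fit.

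Per kilobase of exon, a scale on which genes can be ranked, Cd160 led in all 7 libraries. In WT the mean levels were 63.2 ± 27.7 CPM per kb for Cd160, 28.8 ± 23.7 for Pdcd1, 11.9 ± 5.74 for Ctla4, 9.33 ± 3.20 for Tigit and 7.13 ± 0.265 for Lag3 (SD, n = 4). Tox followed at 5.54 ± 3.48, Havcr2 at 2.49 ± 1.58, Entpd1 at 1.94 ± 0.921, Tox2 at 0.909 ± 1.69 and Cd244a at 0.892 ± 0.894 CPM per kb (SD, n = 4). The WT ranges of all 9 neighbouring pairs overlapped. Compared within each library, Pdcd1 was second in all 4 WT libraries, Ctla4 had rank 3 or 4 and Lag3 rank 4 to 6. In KO the means were 19.8 ± 14.5 CPM per kb for Cd160, 8.36 ± 4.24 for Ctla4, 5.29 ± 3.99 for Pdcd1 and 2.17 ± 1.37 for Lag3 (SD, n = 3). The order below Cd160 differed between the KO libraries: Pdcd1 had rank 5, 6 and 3 of 10 in replicates 1 to 3, Lag3 rank 10, 7 and 6, Ctla4 rank 2, 3 and 2, and Tox rank 9, 2 and 4. The 10 genes together reached 92.2, 114, 99.1 and 223 CPM per kb in WT replicates 1 to 4 and 60.9, 30.1 and 76.7 in KO replicates 1 to 3. Cd160 made up 44.5% to 56.8% of this sum in WT, 45.9% and 47.4% in KO replicates 2 and 3, but 15.1% in KO replicate 1.

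The ligands of these receptors were mixed. Of 15 listed ligand genes 11 were measured, with 6 above and 5 below 0 and a median log2 difference of 0.09. None passed edgeR's adjusted threshold. An unadjusted p under 0.05 was reached by 2 in each direction, and DESeq2 called 1 in each direction. The background for the counts of this and the following lists is that 11.0% of all genes were higher and 7.89% lower at the same unadjusted p, that DESeq2's adjusted p gave 6.81% higher and 3.43% lower, and that the median of all genes was 0.00. Cd48, the ligand of CD244, was at 271, 260 and 522 CPM in KO and 610 to 1210 CPM in WT (log2 -1.34 ± 0.33, SE; edgeR adjusted p = 0.103). Cd86, a ligand of CTLA-4 and CD28 made by antigen-presenting cells, was at 49.0, 25.5 and 55.2 CPM in KO and 5.77 to 19.7 CPM in WT (edgeR adjusted p = 0.113). Ceacam1, a TIM-3 ligand and itself inhibitory, was at 38.4, 2.35 and 2.56 CPM in KO and at most 0.134 CPM in WT (edgeR adjusted p = 0.071). The macrophage and monocyte sum was also above WT in each KO library, while the B cell sum of KO replicate 3 (642 CPM) was under that of WT replicate 4 (682 CPM). The part of such cells in Cd86 and Ceacam1 was not tested.

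A list of 18 other genes of inhibitory pathways held mostly receptors but also the ligands Pdcd1lg2 (in the ligand list as well) and Cd200, which were both above 0. In all 11 of the 18 were above 0 and 7 below (median log2 0.78), with 6 higher and 1 lower at an unadjusted p under 0.05, 3 higher and 1 lower by DESeq2, and 0 by edgeR's adjusted p. Ceacam1, given above, Pilra and Cd300a had the smallest p of this list, whose counts can be read against the shares of all genes given with the ligands. Pilra was at 13.9, 0.535 and 18.8 CPM in KO and 0.180 to 0.480 CPM in WT, and Cd300a at 38.7, 2.0 and 33.1 CPM in KO and 0.135 to 1.32 CPM in WT. Both are inhibitory receptors of myeloid cells, and both were high in the KO libraries with macrophage sums of 1349 and 1306 CPM and lower in the other, where they were still above the highest WT library. The part of myeloid cells in the 2 values was not tested. Of the 13 activating partners 10 were below 0 (median log2 -0.41), 5 lower and 1 higher at an unadjusted p under 0.05, 1 lower by DESeq2 and 0 by edgeR's adjusted p. Slamf7 and Slamf6, SLAM receptors of the same family as CD244, were at 33.7 to 91.7 and 170 to 246 CPM in KO and at 152 to 167 and 262 to 329 CPM in WT (edgeR adjusted p = 0.0889 and 0.166). Cd226, which shares its ligands with TIGIT, was at 60.9, 111 and 206 CPM in KO and 203 to 338 CPM in WT (edgeR adjusted p = 0.197).

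Sh2d1a had the smallest p of the signalling list. Of 21 measured genes of receptor signalling and trafficking 12 were below and 9 above 0 (median log2 -0.17), with 3 lower and 1 higher at an unadjusted p under 0.05, 1 each way by DESeq2 and 0 by edgeR's adjusted p. It encodes SAP, an adaptor that binds CD244, and was at 53.7, 81.0 and 99.2 CPM in KO and 125 to 197 CPM in WT (log2 -1.01 ± 0.24, SE; edgeR adjusted p = 0.0973). Trat1, a T cell transmembrane adaptor, was at 19.0 to 23.7 CPM in KO and 9.54 to 15.1 CPM in WT (edgeR adjusted p = 0.165). Ubash3b, a phosphatase of T cell receptor signalling, was at 58.5, 59.4 and 117 CPM in KO and 110 to 142 CPM in WT (edgeR adjusted p = 0.202).

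In the purinergic list, which holds partners of CD39, 7 of 12 measured genes were above 0 (median log2 0.05), 3 higher and 1 lower at an unadjusted p under 0.05, 3 higher by DESeq2 and 0 by edgeR's adjusted p. P2rx4, an ATP-gated channel, was at 62.4, 30.6 and 34.7 CPM in KO and 9.13 to 18.5 CPM in WT (log2 1.76 ± 0.35, SE; edgeR adjusted p = 0.073). Ada, which removes adenosine, was at 10.5, 12.01 and 8.83 CPM in KO and 3.71 to 4.94 CPM in WT (edgeR adjusted p = 0.0761). P2ry6, a receptor for UDP, was at 7.08, 2.28 and 1.79 CPM in KO and at most 0.224 CPM in WT (edgeR adjusted p = 0.115). Of the genes in this paragraph Ada differed least between the KO libraries.

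Among 23 measured Tox family and exhaustion-linked factors 13 were below 0 and 10 above (median log2 -0.13), 5 lower and 3 higher at an unadjusted p under 0.05, 3 lower and 2 higher by DESeq2, and 0 by edgeR's adjusted p. Bach2, a repressor made by B cells and by less differentiated T cells, was at 131, 104 and 66.0 CPM in KO and 22.4 to 37.0 CPM in WT (log2 1.68 ± 0.26, SE; edgeR adjusted p = 0.0651). Its order over the KO libraries was that of the B cell sums, 10160, 1151 and 642 CPM. KO replicate 3 had more Bach2 than WT replicate 4 (66.0 against 37.0 CPM) but a lower B cell sum (642 against 682 CPM). The part of B cells in the Bach2 level was not tested. Tbx21, which encodes T-bet, was at 189, 167 and 392 CPM in KO and 537 to 670 CPM in WT (edgeR adjusted p = 0.0942). Nfatc2, a calcium-regulated factor of Pdcd1 and other receptor genes, was at 91.2, 97.4 and 107 CPM in KO and 128 to 186 CPM in WT (log2 -0.63 ± 0.15, SE; edgeR adjusted p = 0.0973).

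**Figure D4:**
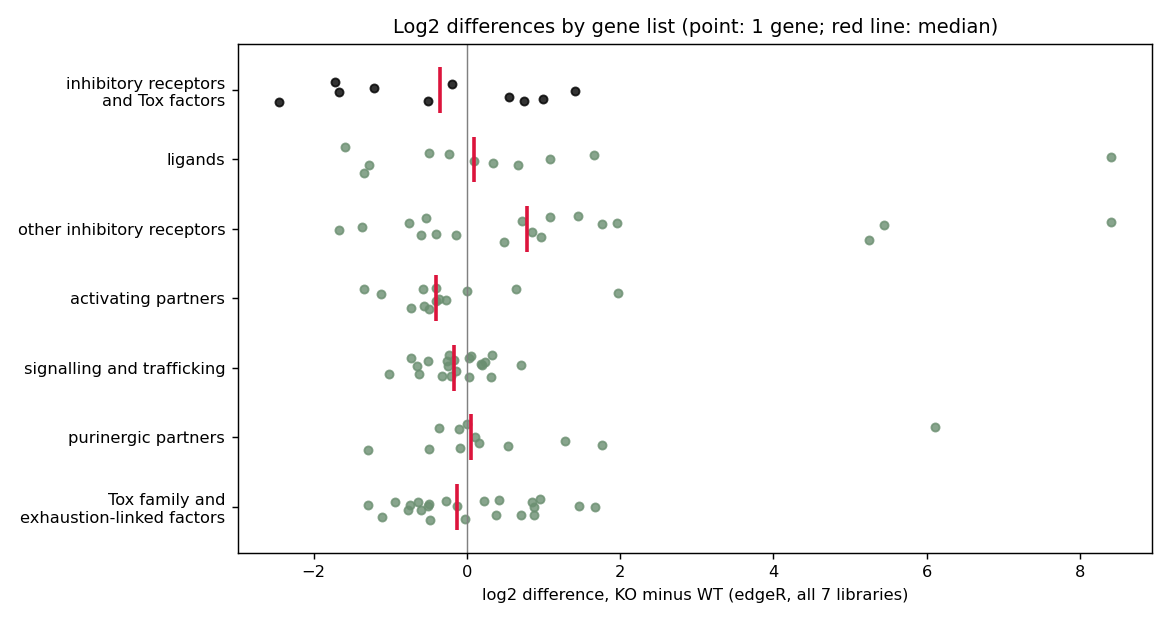
Log2 difference of KO minus WT (x axis, edgeR, all 7 libraries) for the 10 genes (black) and for 6 lists of their partners (green), 1 point a gene, with the list median as a red line; the list of other inhibitory receptors holds the ligands Pdcd1lg2 and Cd200 too. Most points lie between -2 and 2, and the points beyond 5 are Ceacam1, which is in 2 lists, Pilra, Cd300a and P2ry6.

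The most alike other gene of each member was sought by the Pearson correlation of log2 CPM over the 7 libraries among 8470 named genes with a mean of at least 3 log2 CPM. Each r below describes these libraries only, which share genotype, depth and the library differences given above, and the best of so many candidates is high by choice. Pdcd1 was most like Klf10 (r = 0.994), a zinc finger factor induced by TGF-beta, Lag3 most like G2e3 (r = 0.994), Cd160 most like Serp2 (r = 0.987) and Tigit most like Mlst8 (r = 0.979). Ctla4 was most like Wdr62 (r = 0.977), Havcr2 most like Pik3ap1 (r = 0.988) and Cd244a most like Rnf135 (r = 0.967). Entpd1 was most like Neat1 (r = 0.993), a nuclear noncoding RNA, Tox most like Cct7 (r = 0.983), a chaperonin subunit, and Tox2 most like Rfc1 (r = 0.978), a DNA replication factor. No gene was the most alike of 2 members.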

How the data were processed

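Per the submitters' processing notes, Trim Galore 0.6.0, STAR 2.7.8, DESeq2 (no version) and the build mm10 were used; they name no read counter, annotation or strand setting. The tables the authors deposited hold raw counts per gene for the 7 libraries and log2 CPM values of the same genes, which equalled those recomputed here (TMM scaling, prior count 2) within 4.99e-09. CPM was computed from the counts with TMM scaling, and filterByExpr removed 0 genes. Genotypes were compared over all 16156 genes with edgeR 4.0.16 in R 4.3.3 (quasi-likelihood, genotype only, Benjamini-Hochberg threshold 0.05), with SEs derived from that fit, and DESeq2 1.42.0 and limma 3.58.1 (voom with quality weights) as alternatives. The scripts were tested on simulated data. GENCODE M21 (mm10) gave coordinates and exon lengths; no exon of a member overlapped another measured gene. Members, lists and alternatives were chosen with earlier results of these data known. Named beside the members were Acly, the 2 most abundant genes of marker lists, the 3 genes of each partner list with the smallest p, and each member's most alike gene; Trbv segments and some markers were chosen after their values were seen.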

Additional observations from a re-analysis of the deposited data

Results flagged for a closer look

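WT replicate 4 stood apart from the other 3 WT libraries for 5 of the 10 members, in that its gap to the nearest of them, divided by the range of the group, was above Dixon's 95% critical value for 4 values. Chance alone gives such a gap for any of the 4 libraries in about 1 in 20 groups, and for 1 named library in fewer. WT replicate 4 by itself passed that value for 12.7% of 16148 genes. It was high for Pdcd1 at 124 CPM (gap 0.928 of the range), Cd244a at 10.8 CPM (0.857), Tox at 81.6 CPM (0.875) and Tox2 at 11.7 CPM (0.970). It was low for Havcr2 at 0.424 CPM (0.831). The same library had the highest cell cycle sum, 5816 CPM, and an OT-I V beta share of 84.5%. The part of either in these values was not tested.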

How the results depend on the processing

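The number of members called was 0 in every setting except DESeq2, with 3, and limma voom with quality weights, with 1. Partner genes called went from 0 to 17 with DESeq2, 20 with limma voom, 4 with the T cell genes as scaling and 12 with both WT replicate 4 and KO replicate 1 left out, and ranged from 0 to 3 with 1 library left out. All genes called were 1552, 1132, 277 and 1514 in those 4 settings and 0 to 189 with 1 library left out (159, 120 and 189 without KO replicates 1, 2 and 3, 126 without WT replicate 4, and 0 without any other). Of 160 member values over 16 alternatives 144 kept their direction and side of the threshold, 4 became calls and 12 changed sign. Havcr2 turned to -1.88 with limma voom, -0.79 with the replicate block and -0.80 without both of these libraries, and ranged from -0.44 to 1.12 with 1 library left out. Tox turned to 0.41, 0.31 and 0.57 in the same settings and to 0.29 with the T cell genes as scaling, and ranged from -0.35 to 0.35. Ctla4 turned to 0.081 with the T cell genes as scaling, and Tox2 ranged from -2.72 to 4.47. The cause was not tested. The labels do not say whether the replicate numbers pair the samples. Same-numbered libraries correlated at -0.108, -0.0513 and 0.137 in their deviations from the group means, and differently numbered ones at -0.088 to 0.0988. So few values cannot decide whether the libraries are paired. The replicate block called 0 genes.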

Other observations

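Trdc and Itgax, of the marker lists, were chosen here because WT replicate 4 and KO replicate 2, the libraries with almost no Havcr2, were low for them within their genotype. Trdc, the constant segment of the T cell receptor delta chain, was at 325, 301 and 321 CPM in WT replicates 1 to 3 but at 17.2 CPM in WT replicate 4, and at 70.0, 30.9 and 178 CPM in the KO libraries. Itgax, the integrin CD11c that effector CD8 T cells can carry, was at 371 to 401 CPM in WT replicates 1 to 3 and 151 CPM in WT replicate 4, and at 118, 34.3 and 254 CPM in the KO libraries. KO replicate 3, the KO library nearest to WT replicates 1 to 3 in Havcr2, had the most of both genes among the KO libraries. KO replicate 1 had the most Havcr2 of all libraries, 19.8 CPM, but less Itgax than WT replicate 4. Since both genes were chosen for a likeness to Havcr2 in these libraries, that likeness is no evidence of a link. A link was not tested.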
